A study of Mus musculus with 2 samples.

Results

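The brush border genes examined here were 9 genes of the apical surface of the absorptive enterocyte, chosen by gene symbol in the array platform's probe annotation. They are the digestive enzymes Lct, Sis, Alpi, Anpep and Dpp4 and the cytoskeletal genes Vil1, Myo1a, Espn and Ezr. Of these, 6 matched 1 named probe each, among 16390 genes with a named probe: Lct, Anpep, Dpp4, Vil1, Espn and Ezr, the last under its older symbol Vil2. The other 3, Sis, Alpi and Myo1a, matched no named probe and were not analysed here.

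The samples were epithelial cells of the mouse small intestine, sorted by 2 fluorescent proteins and measured on 2 two-colour arrays. All mice carried Atoh1-crePGR, a Cre that RU486 activates in cells expressing Atoh1, the transcription factor of the secretory lineage. They also carried Lgr5-EGFP-IRES-creERT2, which marks Lgr5 stem cells with EGFP and adds a second Cre, and a Rosa26-tdTomato reporter that stays on after recombination. RU486 was injected on 5 consecutive days, and cells pooled from 4 mice were sorted 20 days after recombination. The EGFP+ve/tdTomato-ve cells (EGFP only) are Lgr5 cells with no recorded Atoh1 history, and the EGFP+ve/tdTomato+ve cells (double positive) are Lgr5 cells descended from cells with Atoh1-Cre activity. The EGFP-ve/tdTomato+ve cells (tdTomato only) are the other descendants, of any cell type. The sources used here give neither age nor strain of the mice. RNA of the EGFP-only cells was labelled with Cy5 each time, that of the double-positive cells with Cy3 on the first array and that of the tdTomato-only cells with Cy3 on the second, so the dyes were not swapped. Each fraction is 1 biological replicate. No replicate error or p-value can therefore be given for any ratio, and a gene was called higher or lower when it was 2-fold or more apart (1 or more on the log2 scale).

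The brush border is the carpet of microvilli on the luminal face of enterocytes. Each microvillus holds a bundle of actin filaments crosslinked by villin, espin and fimbrin, tied to the membrane by the motor myosin 1a and by ezrin. Its membrane carries the hydrolases that finish the digestion of sugars and peptides. Enterocytes assemble this structure as they leave the crypt, and stem cells carry only a sparse form of it. Villin is also made in crypt and secretory cells, and in tuft cells, whose apical bundle is prominent.

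Lct and Vil1 were the only members at least 2-fold higher in any comparison, so the 250 bases upstream of their annotated transcription starts are shown, 5′ to 3′ on the gene's strand, from RefSeq in the build GRCm38.p6. The Lct sequence lies at chr1:128328319-128328568 on the minus strand and the Vil1 sequence at chr1:74409134-74409383 on the plus strand. Capitals mark matches to AGATAA, a motif bound by GATA factors, on either strand.
Lct: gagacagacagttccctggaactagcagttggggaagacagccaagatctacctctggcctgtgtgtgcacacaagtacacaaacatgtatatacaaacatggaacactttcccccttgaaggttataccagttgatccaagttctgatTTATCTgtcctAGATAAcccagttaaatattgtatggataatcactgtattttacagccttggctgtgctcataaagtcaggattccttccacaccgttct
Vil1: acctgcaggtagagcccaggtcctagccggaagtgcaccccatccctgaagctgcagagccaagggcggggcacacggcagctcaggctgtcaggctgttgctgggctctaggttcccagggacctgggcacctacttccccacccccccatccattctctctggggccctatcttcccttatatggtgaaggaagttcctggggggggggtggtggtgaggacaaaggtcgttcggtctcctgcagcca
The Lct stretch held 2 matches, at positions -101 to -96 and -90 to -85 counted from the transcription start, and they did not overlap each other or any other motif searched. The Vil1 stretch held 0. Of the other members with a probe, searched alike but not shown, Dpp4 held 1 match, at positions -32 to -27. Anpep, Ezr and Espn held 0, so a match did not go with a high ratio alone. The motif was present in 9.99% of 32851 annotated promoters over the same length. The other 4 motifs, each also searched on both strands and chosen with the genes' ratios known, had no match in either stretch. They were the HNF1 half-site GTTAAT, present in 6.43% of those promoters, and the CDX motif TTTATNG, present in 9.81%. The HNF4 motif CAAAGTNCA was present in 1.19% of the promoters. The letters TATAAA, of the core promoter's TATA box, were present in 12.4%. Dpp4 held 1 match to the CDX motif and 1 to TATAAA, which overlapped, and 1 Espn start held 1 match to the CDX motif. A match is a string of letters and not a measured binding site, and no match says only that these letters are not in this window.

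Among the enzymes, Lct stood highest. Lct encodes lactase-phlorizin hydrolase, which splits milk sugar at the microvillus surface. Its spot had a median intensity of 127 in the EGFP-only channel of the first array and 128 in that of the second, 396 in the double-positive channel and 480 in the tdTomato-only channel. Both EGFP-only readings were therefore the lowest, and the tdTomato-only reading was the highest. After normexp background correction and loess normalization within each array, Lct was 4.38-fold higher in double-positive than in EGFP-only cells (log2 ratio 2.13). It was 5.16-fold higher in tdTomato-only cells (log2 ratio 2.37). On that scale 1.38% of all genes measured had a higher ratio than Lct in the first comparison and 1.23% in the second. The Lct spot was dim in EGFP-only cells, where the offset used in the background correction bears on a fold: with an offset of 16 in place of 50 the log2 ratios were 2.60 and 2.84. In the authors' deposited ratios, which differ in both background and normalization, they were 2.92 and 3.06. In bulk samples, a lower share of Lct-expressing cells and less Lct RNA per cell cannot be told apart.

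Neither peptidase with a probe was 2-fold apart from EGFP-only cells. Anpep encodes aminopeptidase N, which removes amino acids from the free amino end of peptides. Its spot median was 338 and 341 in the EGFP-only channels, 396 in double-positive and 443 in tdTomato-only cells. Normalized, Anpep was 1.63-fold higher in double-positive and 1.73-fold higher in tdTomato-only cells, with log2 ratios of 0.70 and 0.79. The 9 processing settings put its log2 ratio between 0.26 and 0.83 in the first comparison and between 0.36 and 0.93 in the second.

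Dpp4 encodes dipeptidyl peptidase 4, which cuts dipeptides from peptides with proline or alanine in the second place and is also the T cell surface protein CD26. Its spot median was 861 and 854 in the EGFP-only channels, 669 in double-positive and 741 in tdTomato-only cells, so the unnormalized Cy3 readings were below the Cy5 readings. Normalized for the dye curve, the log2 ratios were 0.21 and 0.29, that is 1.16-fold and 1.22-fold higher. Median centring without loess turned them to -0.33 and -0.22, and the authors' deposited ratios were 0.06 on both arrays, so no direction of Dpp4 held under every setting.

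Of the cytoskeletal genes, Vil1 stood highest. Vil1 encodes villin, which bundles and severs actin filaments in the microvillus core. Its spot median was 2946 and 2779 in the EGFP-only channels, 3003 in double-positive and 3617 in tdTomato-only cells. The EGFP-only and double-positive readings were close before normalization, and the tdTomato-only reading was the highest. Normalized, Vil1 was 1.82-fold higher in double-positive cells (log2 ratio 0.86) and 2.14-fold higher in tdTomato-only cells (log2 ratio 1.10). Loess accounted for 0.78 and 0.71 of these values relative to median centring, under which they were 0.08 and 0.39. In the authors' deposited ratios they were 0.51 and 0.69. The sign was positive in all 9 settings, though those that change only the filter on dim probes leave this bright probe's ratio as it was. The call at 2-fold in tdTomato-only cells was lost with the deposited ratios, median centring and quantile normalization (0.85).

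Ezr encodes ezrin, which links actin filaments to membrane proteins in enterocytes and in many other cells, lymphocytes included. Its spot median was 719 and 742 in the EGFP-only channels, 711 in double-positive and 883 in tdTomato-only cells. Normalized log2 ratios were 0.56 and 0.76, or 1.48-fold and 1.69-fold higher. They lay between 0.02 and 0.63 in the first comparison and between 0.25 and 0.83 in the second across settings. Among its relatives, Rdx, which encodes radixin, had log2 ratios of 0.31 and -0.02, and of 1.98 and 0.55 in the authors' deposited ratios. The merlin gene Nf2 had -0.15 and -0.17, and the moesin gene Msn was not above background in any channel.

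Espn encodes espin, a second actin bundler of microvilli. Its spot median was 76.8 and 78.3 in the EGFP-only channels, 87.3 in double-positive and 83.4 in tdTomato-only cells. The limits of detection, the mean plus 2 SD of the blank spots, were 74.1 and 75.7 for Cy5 and 82.2 and 85.4 for Cy3, so the tdTomato-only reading was not above background and the others were barely above it. The log2 ratio in double-positive cells was 0.01. In the tdTomato-only comparison only a nominal bound can be given, 1.10-fold higher in EGFP-only cells, or 0.13 on the log2 scale. Before normalization the tdTomato-only reading was the higher of the pair, so this bound gives Espn no direction. In the authors' deposited ratios Espn had 0.62 and -0.68, values that rest on spots at the detection limit.

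**Figure D1:**
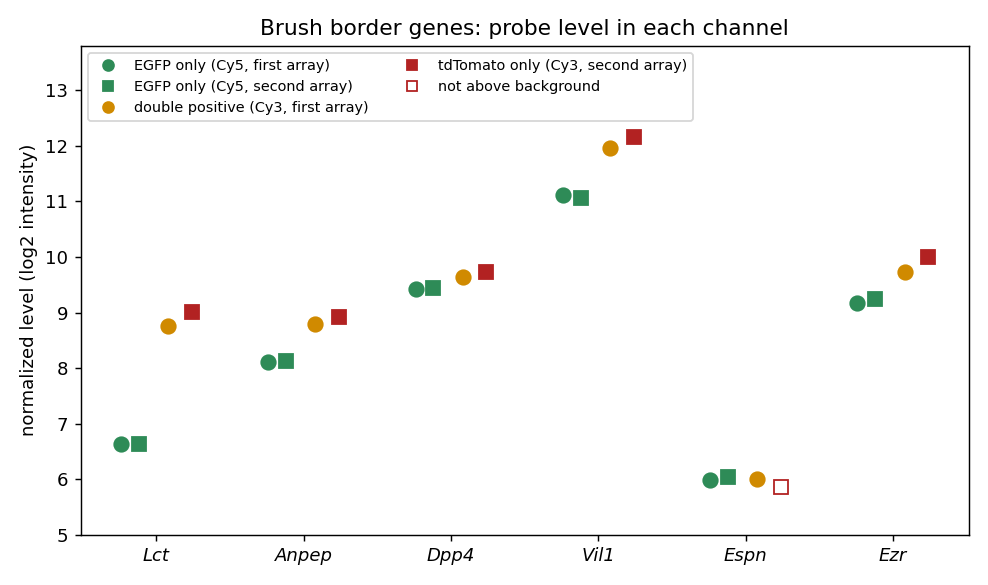
Normalized level (log2 intensity, after loess within and Aquantile between arrays) of the 6 brush border probes in each of the 4 channels. The EGFP-only points of both arrays nearly coincide for every gene; Lct shows the widest gap to the other populations, and the tdTomato-only point of Espn is not above background. Heights of different genes cannot be compared, since each is read by a different probe.

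The only repeated reading is that of the EGFP-only channel, present on both arrays. Over 15640 probes its 2 normalized log2 levels differed with an SD of 0.083, and for the 6 brush border probes the difference (second minus first array) ran from -0.042 for Vil1 to 0.072 for Ezr. This describes labelling, hybridization and scanning at most, since the sources used here do not say whether both arrays received the same extract. It holds no Cy3 and no biological variation.

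Counted together, 1 of 6 measured members was at least 2-fold higher in double-positive cells (Lct) and 0 were 2-fold lower, against 5.1% and 0.34% of 11774 genes. In tdTomato-only cells 2 of 5 measured members were at least 2-fold higher (Lct and Vil1) and 0 lower, against 6.15% and 1.19% of 11381 genes. The median log2 ratio of the members was 0.63 in the first comparison, with a median of -0.01 over all genes, and 0.79 in the second, again with -0.01 over all genes. Median centring moved the median of all genes to -0.21 on both arrays and that of the members to 0.07 and 0.36. Ordered by the normalized ratio, the members ran Lct, Vil1, Anpep, Ezr, Dpp4 and Espn on the first array and Lct, Vil1, Anpep, Ezr and Dpp4 on the second. In the first comparison Vil1 and Anpep were apart by 0.16, and Anpep and Ezr by 0.14. In the second Anpep and Ezr were apart by 0.03, less than the SD of the repeated channel. That SD holds no Cy3 and no spread between probes, so it does not set the wider gaps apart from noise. The order also moved with the setting: on the first array Anpep stood above Vil1 in the authors' deposited ratios (0.73 and 0.51) and with median centring (0.26 and 0.08). Both comparisons share the EGFP-only population, so their like order is not an independent repeat.

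**Figure D2:**
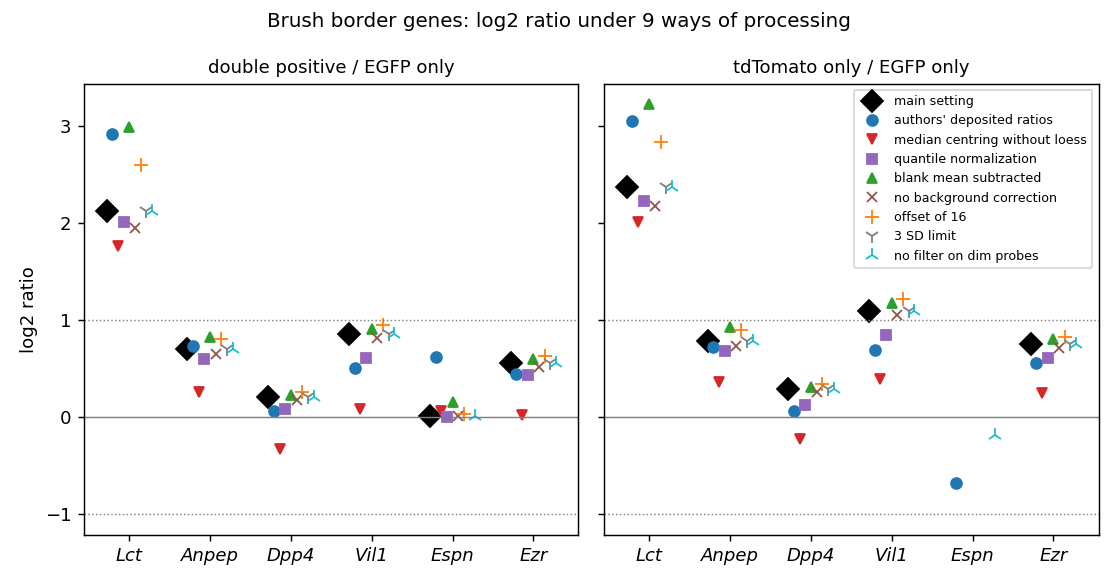
Log2 ratio to EGFP only (y axis) of each brush border gene under the main setting (black diamonds) and 8 alternatives, with dotted lines at 2-fold. Lct stays between 1.77 and 2.99 in double-positive and between 2.01 and 3.23 in tdTomato-only cells; median centring without loess gives the lowest value of each of the other genes except Espn.

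The tdTomato-only and double-positive populations were set against each other by subtracting each gene's log2 ratio on the first array from that on the second, which cancels the shared reference and a dye effect common to both. None of the 5 measured members was 2-fold apart (0 higher and 0 lower, against 0.813% and 0.274% of 11311 genes). All 5 differences were above 0: 0.24 for Vil1 and 0.24 for Lct, 0.20 for Ezr, 0.09 for Anpep and 0.08 for Dpp4. Those of Vil1, Lct and Ezr were above 0 in all 9 settings, with lowest values of 0.18, 0.14 and 0.11, while those of Anpep and Dpp4 were -0.01 and 0.00 in the authors' deposited ratios. No replicate spread of either population is known, so none of the 5 can be called a difference.

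Other brush border genes gave a wider view. The lists held 107 genes beside the members, of which 90 had a named probe. They also took in genes of other sites in the cell, such as the cytosolic dipeptidase gene Cndp2. In double-positive cells 17 of the 78 that were measured (21.8%) stood at least 2-fold higher and 0 were 2-fold lower, beside 5.1% and 0.34% of all genes. In tdTomato-only cells 26 of 76 (34.2%) were at least 2-fold higher and 0 lower, beside 6.15% and 1.19% of all genes. Their median log2 ratios were 0.33 and 0.54, with 0.03 and 0.17 under median centring. The lists were drawn up with earlier results of these arrays known, so these shares describe the lists and are not a test of them. Of 57 named values of these lists and the members relative to EGFP only, 20 were apart from the authors' deposited ratios by more than 1.5-fold, and all 20 were farther from 0 as deposited.

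The peptidase list, which holds Anpep and Dpp4, had a median log2 ratio of 0.63 in double-positive cells, with 5 of 14 measured genes at least 2-fold higher (5.1% of all genes), and of 0.79 in tdTomato-only cells, with 6 of 13 (6.15% of all genes). Mep1b, the beta subunit of the metalloprotease meprin, was 3.87-fold and 5.70-fold higher in double-positive and tdTomato-only cells. Dpep1, a membrane dipeptidase, was 3.28-fold and 4.94-fold higher. Enpep, glutamyl aminopeptidase, was 3.04-fold and 3.88-fold higher, and Ggt1, which cleaves glutathione outside the cell, was 2.58-fold and 4.40-fold higher. These 4 are the genes with the largest ratios of the list. Tmprss15, the enteropeptidase gene, was above background only in the Cy3 channels, with bounds of at least 1.36-fold and 1.20-fold higher, and Ggt5 had a bound of at least 1.08-fold higher in EGFP-only cells on the second array. The tdTomato-only minus double-positive difference was 1.01 for the cytosolic dipeptidase gene Cndp2 (0.95 without background correction), 0.77 for Ggt1, 0.59 for Dpep1 and 0.56 for Mep1b.

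The second disaccharidase gene measured, Treh, which encodes trehalase, had a log2 ratio of 0.29 in double-positive cells, and 1.83 there and 2.42 in tdTomato-only cells in the authors' deposited ratios. On the second array it was above background in tdTomato-only cells alone, at least 1.30-fold higher. Among phosphatases, Alppl2 and Alpl had log2 ratios of -0.05 and -0.03 in double-positive cells and 0.03 and 0.01 in tdTomato-only cells. Akp3, which encodes an intestinal alkaline phosphatase in mouse, was above background in Cy3 alone, with bounds of at least 1.00-fold and 1.13-fold higher. In the authors' deposited ratios Akp3 had 0.91 and 2.16, values that rest on EGFP-only spots not above background. Of the other genes on that list, Asah2, a ceramidase, was 3.47-fold and 4.13-fold higher, and Enpp3 was 2.16-fold and 6.48-fold higher, the former value of Enpp3 being under 2-fold with median centring (log2 ratio 0.90). Entpd8, an ectonucleotidase, was 2.14-fold higher in tdTomato-only cells, but under 2-fold with median centring (log2 ratio 0.70) and quantile normalization (0.98). Enpp7, the intestinal sphingomyelinase, had log2 ratios of 0.86 and 0.71, and of 2.75 and 2.50 in the authors' deposited ratios. Naaa, an acid amidase, had -0.41 and -0.28, and Nt5e was above background in no channel compared. Enpp3 had a tdTomato-only minus double-positive difference of 1.58, Entpd8 one of 0.72, Asah2 one of 0.25 and Enpp7 one of -0.15.

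Among 25 measured genes of the microvillus core and its membrane tethers, which include Vil1, Espn and Ezr, 4 were at least 2-fold higher in double-positive cells (5.1% of all genes), with a median log2 ratio of 0.34. In tdTomato-only cells 7 of 24 were (6.15% of all genes), with a median of 0.51. Median centring gave 0.02 and 0.12. None was 2-fold lower on either array. Pdzk1, a scaffold that holds transporters in the apical membrane, was 2.78-fold and 3.94-fold higher. Slc9a3r1, which encodes the ezrin-binding scaffold NHERF1, was 2.17-fold and 2.96-fold higher, and the adhesion protein gene Tmigd1 2.93-fold and 2.90-fold, with log2 ratios of 1.55 and 1.53 that were 4.03 and 4.02 in the authors' deposited ratios. Podxl, an ezrin-bound sialomucin gene, was 2.52-fold higher in double-positive cells. It was at least 2-fold higher in tdTomato-only cells too, but under 2-fold there with median centring (log2 ratio 0.80). Pls1 encodes fimbrin, the third bundler beside villin and espin. Its log2 ratio was above 0 in double-positive cells, and it was 2.45-fold higher in tdTomato-only cells. With median centring the log2 ratio of Pls1 in tdTomato-only cells was 0.69 and that of Slc9a3r1 in double-positive cells 0.63, both under 2-fold. The largest tdTomato-only minus double-positive differences in this list were -0.51 for the capping protein gene Eps8 and 0.51 for Anks4b, a scaffold of the links between microvilli, followed by Pdzk1 (0.50) and Baiap2l2 (0.49).

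The terminal web, the contractile network beneath the microvilli, had median log2 ratios of 0.12 and 0.24, which turned to -0.19 and -0.02 when arrays were centred on the median only. The keratin gene Krt20, a marker of mature villus cells, was the only one of 13 measured genes past 2-fold, at 2.76-fold and 4.35-fold higher. That is 7.69% of the list on each array, near the 5.1% and 6.15% of all genes. The myosin genes Myh9 and Myh14 had log2 ratios of 0.60 and 0.31 in double-positive cells, and Myh14 had 0.47 in tdTomato-only cells. The light chain gene Myl12b had 0.49 and 0.55 in that order, and the tropomyosin gene Tpm4 had 0.60 in tdTomato-only cells. Krt19 was above background in Cy3 alone, with bounds of at least 1.03-fold higher on both arrays. Between tdTomato-only and double-positive cells, Krt20 differed by 0.65, Tpm4 by 0.39, the spectrin gene Sptbn1 by -0.33 and Tpm3 by 0.28.

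Apical transporters and receptors, which share the microvillus membrane with the enzymes, had a median log2 ratio of 0.41 in double-positive cells, with 5 of 21 measured genes at least 2-fold higher (5.1% of all genes). In tdTomato-only cells the median was 0.98, with 10 of 21 (6.15% of all genes). Slc6a19, a transporter of neutral amino acids, was 2.85-fold and 3.24-fold higher, Npc1l1, which takes up cholesterol, 2.36-fold (under 2-fold with median centring, log2 ratio 0.85) and 3.54-fold, and the phosphate transporter gene Slc34a2 2.52-fold and 3.04-fold. The fructose transporter gene Slc2a5 was 2.66-fold higher in double-positive cells and Slc3a1, a subunit of a dibasic amino acid transporter, 3.05-fold higher in tdTomato-only cells. Each is given where it was among the 4 largest ratios of the list. Slc2a5 was at least 2-fold higher in tdTomato-only cells too, and Slc3a1 had a log2 ratio above 0 in double-positive cells. Slc5a12 was above background in Cy3 alone, with bounds of at least 1.11-fold and 1.07-fold. The largest tdTomato-only minus double-positive differences were 0.79 for Slc3a1, 0.66 for Slc6a20a, 0.65 for Abcg5 and 0.60 for Slc7a9.

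**Figure D3:**
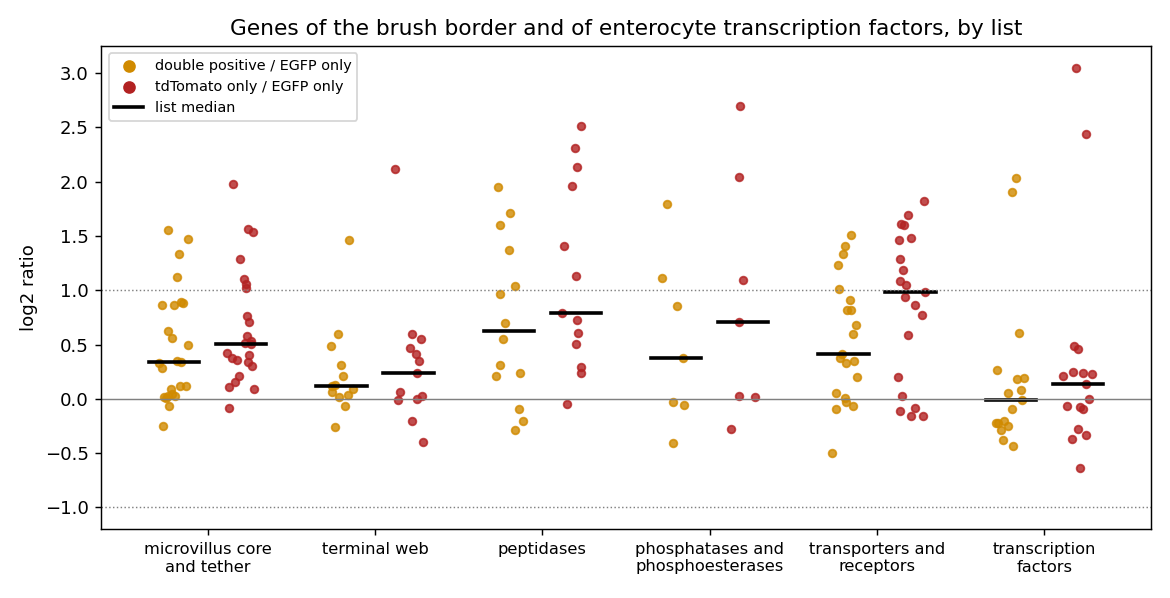
Log2 ratios (y axis) of the measured genes of 6 lists, each point a gene, orange for double positive and red for tdTomato only over EGFP only; black bars are list medians and dotted lines mark 2-fold. In the main setting medians are 0.63 and 0.79 for peptidases and 0.41 and 0.98 for transporters, and near 0 for transcription factors.

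Transcription factors of enterocytes had medians of -0.01 and 0.14, which became -0.36 and -0.43 with median centring, and on each array 2 of 17 (11.8%) passed 2-fold upwards, beside 5.1% and 6.15% of all genes. Klf4, a factor of post-mitotic epithelium that goblet cells also express, was 3.74-fold and 8.27-fold higher, and Creb3l3, a regulator of lipid metabolism, 4.09-fold and 5.43-fold higher. Cdx2 had -0.43 and Gata5 0.61 in double-positive cells, and Smad4 had -0.64 and Hnf4g 0.48 in tdTomato-only cells. Prdm1 was above background in double-positive cells alone, with a bound of at least 1.07-fold. Between tdTomato-only and double-positive cells the differences were 1.15 for Klf4, 0.63 for Nr1h4, 0.49 for Hnf4g and 0.48 for Isx.

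**Figure D4:**
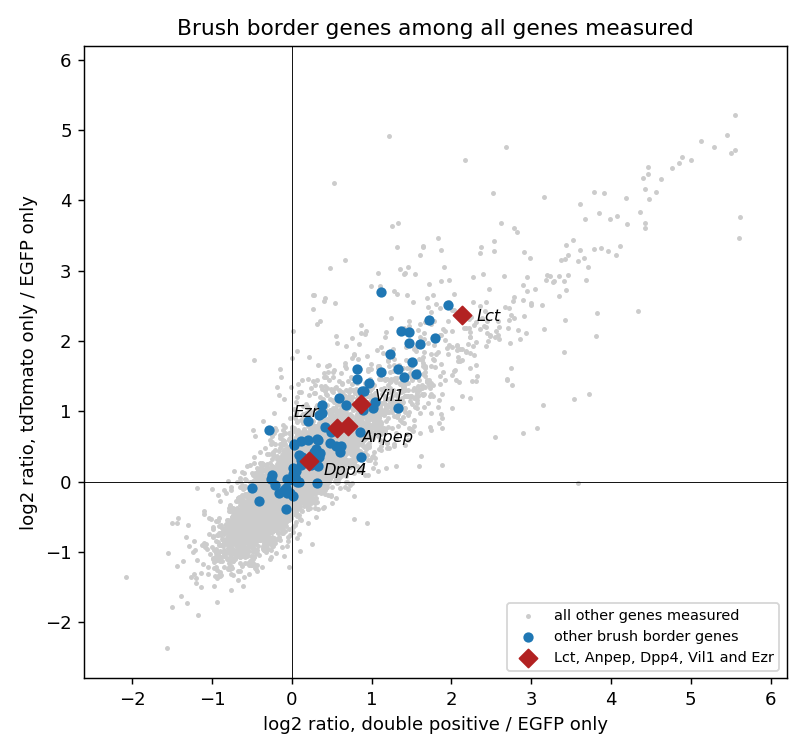
Each point is a gene measured on both arrays, placed by its log2 ratio to EGFP only in double-positive (x axis) and tdTomato-only cells (y axis). Lct lies at 2.13 and 2.37, Vil1, Anpep and Ezr lie between 0.56 and 1.10, and Dpp4 lies nearest to 0 among the 5 members drawn; both axes share the EGFP-only population.

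By the distance between the pairs of log2 ratios to EGFP only, the genes most like Vil1 were Pde4dip (0.0295), Paqr9 (0.0347), Tpd52 (0.0406), Cdr2 (0.045) and Slc27a4 (0.0465), the last encoding a fatty acid transport protein. The measure rests on 2 ratios, and 27 of 11313 genes lay within 0.1 of Vil1.

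Markers of several cell types differed between the same populations as the brush border genes. Beside the counts of markers below, 5.1% of all genes were at least 2-fold higher in double-positive cells and 6.15% in tdTomato-only cells. The Lgr5 probe had log2 ratios of 0.26 and -0.89. Absorptive markers outside the brush border were at least 2-fold higher for 6 of 11 genes in double-positive and 8 of 11 in tdTomato-only cells, led by the fatty acid binding protein gene Fabp1 (7.05-fold and 11.8-fold) and the apolipoprotein gene Apoa1 (6.88-fold and 12.2-fold). Their summed normalized intensity was 13373 and 13901 in the EGFP-only channels, 39379 in double-positive and 73023 in tdTomato-only cells. All 11 of these genes were above background in EGFP-only cells too. Each level in this sum and in those of the other marker lists includes the offset of the background correction. A probe near background therefore still adds to a sum, and ratios of sums do not give proportions of cells. All 6 measured Paneth cell markers were at least 2-fold higher in both populations, with the colipase gene Clps at 46.9-fold and 37.3-fold. Spots of 3 of them were saturated, Ang4 and Itln1 in both Cy3 channels and Mmp7 in the double-positive channel alone. Their folds in those channels are lower limits, and the markers were not ranked. Goblet cell markers were at least 2-fold higher for 8 of 10 genes in double-positive and 9 of 10 in tdTomato-only cells. Agr2 was 6.19-fold higher in the former and Rep15 17.2-fold in the latter. The mucin gene Muc2 passed 2-fold on neither array, with log2 ratios of -0.40 and 0.16. Of the goblet markers, 3 (Zg16, Tff3 and Spink4) were saturated in a Cy3 channel.

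T and intraepithelial lymphocyte markers are given because Dpp4 and Ezr are also lymphocyte genes. All 9 measured, of 12 listed, were at least 2-fold higher in double-positive cells (5.1% of all genes). In tdTomato-only cells 6 of 9 were (6.15% of all genes). Their summed intensity was 1767 and 1780 in the EGFP-only channels, 16736 in double-positive and 7131 in tdTomato-only cells, and Cd3e was not above background in any channel. Tuft cell markers, of interest because tuft cells contain villin, had medians of -0.47 and -0.01 over 5 genes, with Avil at -0.69 in double-positive cells and Trpm5 at -0.25 in tdTomato-only cells. Their summed intensity was 793 and 798 in the EGFP-only channels, 625 in double-positive and 767 in tdTomato-only cells. Of the 8 tuft genes with a probe, 6 were above background in each EGFP-only channel, 7 in double-positive and 6 in tdTomato-only cells. Tuft levels were dim, so the offset weighs on this sum and it does not measure the share of tuft cells. Stem cell markers had medians of -0.03 and -0.95, with Olfm4 at -1.56 and -2.37. Enteroendocrine markers had medians of -1.11 and -0.45, with 1 of 10 genes above 0 in double-positive and 2 in tdTomato-only cells. Sct had 0.66 and 1.65, and Neurog3 had -1.55 and -1.02 (the latter -0.98 without background correction). Fibroblast, muscle and endothelial markers had medians of 0.05 and -0.14. Myeloid markers had medians of 0.18 and 0.54, against 1.94 and 1.22 in the authors' deposited ratios. Of the 7 measured in double-positive cells 3 passed 2-fold upwards (5.1% of all genes), and 1 of 5 did in tdTomato-only cells (6.15% of all genes). C1qb was 12.3-fold and 9.82-fold higher in that order. The summed intensity of the myeloid markers was 792 and 797 in the EGFP-only channels, 2170 in double-positive and 1721 in tdTomato-only cells. The part of each of these cell types in the brush border ratios was not tested.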

How the data were processed

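Per the labels' protocols, RNA of sorted cells was amplified, labelled with Cy3 or Cy5 and read on 2 two-colour arrays from Toray. The authors deposited spot median intensity values for red and green, per the file headers, and blank spots well above 0 show that no background was subtracted. A table of normalized log2 ratios was deposited as well, with EGFP only as the denominator per the labels. Their scale, centring and direction were settled from the values: subtracting the trimmed blank mean from each channel and centring gave them within 0.02 for 99.99% of probes, and each column has a median of 0.

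Intensities were corrected with normexp (offset 50) and normalized by loess within each array (limma 3.58.1, R 4.3.3). Controls had weight 0, as had quality-marked spots (2 and 3 probes, none a brush border probe). Of 23474 probes, 16176 and 15722 were above background in Cy5 and 18091 and 17078 in Cy3, and median intensities ran from 98.2 to 108. The number of arrays limits the precision. No brush border spot was saturated. A bound divides the bright level by the lowest level above background on the dim side, or by the dim probe's own level if higher, after loess and Aquantile; dye bias in it was not tested. Probes of a gene were averaged. Symbols came from the platform's annotation, updated through RefSeq synonyms (3947 updated, 59 ambiguous, 3 unmatched, 12622 current). The annotation's Si is an older symbol of Pmel and was not taken for Sis. The sources used here do not give the build behind the array.

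No test was made, since each comparison rests on 1 array or on the difference of both. The steps were tested on simulated arrays in which bright probes were changed by large folds, equally often up and down. The simulation did not cover dim spots, ratios under 2-fold or mostly upward changes, so it does not vouch for the member ratios. The members and gene lists were chosen with earlier results of these data known. Named were all members, the 4 genes with the largest ratio of each brush border or transcription factor list and up to 2 with a bound, all of the ezrin, disaccharidase and alkaline phosphatase genes, up to 2 of each marker list, the 5 genes nearest to Vil1, and Lgr5. Cd3e, Muc2, Nt5e and the saturated markers were named after their values were seen. The 8 alternatives tried were the deposited ratios, median centring, quantile normalization, blank subtraction, no background correction, an offset of 16, a limit of 3 SD and no filter on dim probes. The limit of 3 SD and the lack of a filter change only which probes count. They leave the ratio of a bright probe as it was and add no support for its sign.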

Additional observations from a re-analysis of the deposited data

How the results depend on the processing

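With 1 array a comparison, no replicate could be left out. No paired analysis was possible because each population is 1 sample and no test was made. The median log2 ratio of the brush border members was 0.63 in double-positive cells and moved to 0.07 with median centring without loess, 0.52 with quantile normalization, 0.72 with the blank mean subtracted and 0.72 with an offset of 16. In tdTomato-only cells it was 0.79 and moved to 0.62 for the deposited ratios, 0.36 under median centring, 0.68 with quantile normalization, 0.93 with the blank mean subtracted and 0.90 with an offset of 16. The number of members at least 2-fold higher there was 2, and 1 as deposited, under median centring and under quantile normalization. Between tdTomato-only and double-positive cells the median was 0.20, and 0.06 as deposited, where 1 member, Espn, was counted as lower (-1.30) from spots at the detection limit. Over the gene lists, members included, 30 genes were at least 2-fold higher in tdTomato-only cells and 0 lower, but 19 and 1 with median centring. Over all genes these counts were 700 and 135, but 407 and 850 with median centring. Between tdTomato-only and double-positive cells 0 of the lists were lower, but 2 as deposited and 1 after blank subtraction. Over all genes 31 were lower there, but 215 as deposited and 163 after blank subtraction. In double-positive cells the count of 20 higher genes of the lists ranged from 14 to 30 over all settings. Over all genes the count was 601 and ranged from 364 to 1516, so the counts of the lists moved along with those of all genes. Of 76 values past 2-fold that the naming rule picked, 8 were under 2-fold in at least 1 alternative and 0 changed sign. Genes were named largely for the largest ratios of their lists, marker lists included, so this count does not measure the stability of the lists. The cause was not tested. The share of higher genes among all those past 2-fold was 93.8% for the first and 83.8% for the second array. It was 33.0% and 32.4% under median centring, 77.7% and 64.9% as deposited, 74.5% and 67.4% after blank subtraction, and 82.8% and 69.7% under quantile normalization. Between tdTomato-only and double-positive cells it was 74.8%, but 50.1% as deposited and 55.8% after blank subtraction. Without a dye swap, a dye effect of single probes and a difference between populations cannot be told apart.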
